A study of Mus musculus with 12 samples.

Results

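The p53 network genes described here are Trp53, the gene of the transcription factor p53, the direct regulators Mdm2, Mdm4 and Ppm1d, and 34 genes known as p53 targets in arrest, death, repair and metabolism. They were chosen by gene name, and all 38 names were found among the 55487 genes of the expression table. No expression value entered the rule, but the list was drawn up with earlier results of these data known, so the counts over it are a description and give no independent support for a direction. All 38 genes were among the 16016 that passed the filter on low values (at least 1 TPM, an abundance corrected for gene length and library size, in at least 3 libraries), and none was listed at 0 in any library, the levels running from 1.03 to 894 scaled TPM.

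RNA-seq was performed on 12 libraries, 3 for each of 4 groups, all from the cochlea of postnatal day 4 mice of a mixed C57Bl6 and FVB/N background, with tissue of 6 to 8 mice of both sexes pooled for a culture. The sphere group was grown with EGF (20 ng/ml), bFGF (10 ng/ml), IGF (50 ng/ml) and heparan sulfate (50 ng/ml). The SCDM group was spheres plated for differentiation in DMEM/F12 with BDNF and NT3 (50 ng/ml each), and the SCDM/FGF group received bFGF (100 ng/ml) as well. The FIBCL group was spheres plated in Neurobasal medium without BDNF and NT3, with Forskolin (20 µM, an activator of adenylyl cyclase), ISX9 (20 µM), I-BET (1 µM, an inhibitor of BET bromodomain proteins), Chir99021 (10 µM, an inhibitor of GSK3) and LIF (1000 U/ml), and with bFGF that the labels list both as 50 and as 100 ng/ml. The table columns used for it are named FIBC, a name the study also gives to the compounds when LIF is left out. No other label holds that name, so the columns were assigned to FIBCL, and the presence of LIF rests on the labels. Cells in the 3 differentiation media were analysed after 14 days. The base medium, the neurotrophins, bFGF, LIF and the small molecules all differ between FIBCL and SCDM, so their parts in a difference cannot be told apart, and no group received a single compound.

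p53 is held at a low level by Mdm2, which marks it for degradation, and is stabilised when DNA damage or other stress blocks that control. The stabilised protein binds a pair of similar DNA elements and switches on genes that stop the cell cycle, repair DNA, alter metabolism or start cell death, and among its targets is Mdm2 itself, which closes a negative loop. The abundance of p53 is set largely at the level of the protein, which RNA-seq does not measure.

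Promoter sequences were examined first, because binding of p53 to its paired element is what defines a direct target. RefSeq windows from 250 bases before to 50 bases after a start site (GRCm38.p6) were given for 31 of the 38 genes, in 43 windows, and not for Ptp4a3, Zmat3, Xpc, Trp53inp1, Ddb2, Rrm2b and Perp. The p53 consensus element was searched as 2 adjoining p53 decamers with no spacer, with at most 3 mismatches in 20 bases and with the C and the G of both cores kept. The element reads the same on both strands. Such a pair was present in 8 of the 31 genes (25.8%), namely Aen, Ccng1, Cdkn1a, Gtse1, Rps27l, Sesn1, Tigar and Trp53, and in 1.63% of all 27025 genes with a window. Some of these genes became known as targets through such elements, so the share describes the list and is no result of the libraries. The 5 lines below show the pair in capitals with 20 bases on each side, 5′ to 3′ on the strand of the gene, for the cell cycle inhibitor Cdkn1a, for Ccng1 and Rps27l, which were also higher in FIBCL than in SCDM, and for Sesn1 and Trp53, which were lower.
Cdkn1a: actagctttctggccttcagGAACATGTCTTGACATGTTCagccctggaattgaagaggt
Ccng1: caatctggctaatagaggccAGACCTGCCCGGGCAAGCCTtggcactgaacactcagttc
Rps27l: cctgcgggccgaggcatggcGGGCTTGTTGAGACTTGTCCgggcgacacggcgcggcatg
Sesn1: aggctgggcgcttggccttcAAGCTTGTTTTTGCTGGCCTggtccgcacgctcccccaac
Trp53: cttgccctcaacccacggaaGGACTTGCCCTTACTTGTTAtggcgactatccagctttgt

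The pair matched the consensus at 19 of 20 positions in Ccng1, Cdkn1a, Gtse1 and Rps27l and at 17 of 20 in Aen, Sesn1, Tigar and Trp53. Ccng1, Cdkn1a, Gtse1 and Rps27l were all higher in FIBCL than in SCDM. Among the genes with 17 matches, Aen and Tigar were higher, while Sesn1 and Trp53 were lower. Whether the number of matches is related to direction was not tested. The printed stretches lie at chr17:29090908-29090967 (plus strand) for Cdkn1a, chr11:40755442-40755501 (minus strand) for Ccng1, chr9:66946276-66946335 (plus strand) for Rps27l, chr10:41887246-41887305 (plus strand) for Sesn1 and chr11:69580264-69580323 (plus strand) for Trp53. The pair begins 51, 195 and 75 bases before the RefSeq start of the window for Cdkn1a, Ccng1 and Trp53. In the GENCODE M21 annotation it lies between genes for these 3 genes and in an intron for Rps27l and Sesn1. A single p53 decamer with no mismatch, which may be part of a pair, was found in 13 of the 31 genes (41.9%) and in 9.55% of all genes. The cell cycle homology region (CHR, TTTGAA on either strand), an element of genes repressed through p21, was found in 5 of 31 (16.1%, against 20.2% of all genes) and in neither Gtse1 nor Psrc1. The cAMP response element (CRE, TGACGTCA, its own reverse complement) was found in Btg2, Plk2 and Ppm1d (9.68%, against 2.03% of all genes). These are matches of letters in short windows, and elements outside them were not searched.

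Values below are TPM scaled between libraries so that the middle of the log2 ratios over 8434 well expressed genes is equal, fold changes are on the log2(scaled TPM + 1) scale with their SE, and a gene was called when its adjusted p from limma, over all 16016 genes, was under 0.05. The read depth of the libraries is unknown, since TPM does not keep it. TPM totals were 899295 to 911076 in the FIBCL libraries and 982067 to 994845 in the other 9. Over all tested genes, leaving out the scaling moved the median log2 difference from -0.07 to -0.40 for FIBCL against SCDM, from -0.05 to -0.31 against SCDM/FGF and from -0.06 to -0.51 against spheres, and differences of that size in FIBCL depend on the scaling. The FIBCL libraries carried 7 of 8 tested neuron markers above SCDM, with summed levels of the 10-gene list of 505 to 525 scaled TPM against 95.1 to 221 in the other groups, although Rbfox3 stayed between 0.526 and 1.46 and Gap43 was lower (73.2 ± 3.80 against 192.5 ± 10.4 in SCDM, SD, n = 3). The SCDM libraries, labelled as induced neurons too, had a mean of 0.0540 for Snap25 and 0.0284 for Elavl3, while Tubb3 (11.5 against 4.84) and Stmn2 (1.81 against 0.646) were called higher in SCDM than in spheres. Of the 8 tested neuron markers, 3 were higher and 2 lower in SCDM than in spheres (24.5% and 25.8% of all genes). Their median log2 fold change was -0.11.

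In FIBCL, most p53 network genes were higher than in SCDM. Against SCDM, 29 of the 38 genes were higher and 8 were lower, where 32.7% of all tested genes were called higher and 39.0% lower. At least 2-fold differences were found for 21 genes upward and 3 downward, against 13.2% and 16.2% of all genes. The median log2 fold change was 1.06 for the 38 genes and -0.07 for all genes. Without the scaling the counts were 26 higher and 8 lower, against 20.5% and 55.7% of all genes. Of these, 10 and 5 were at least 2-fold, against 9.3% and 23.3% of all genes, and the median was 0.67 against -0.40.

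The same FIBCL libraries were compared with SCDM/FGF, the control that shares bFGF with the mixture. Here 27 genes were higher and 6 lower (32.5% and 38.2% of all genes), 11 and 1 of them at least 2-fold (12.0% and 15.8%), and the median was 0.62. Against spheres 28 were higher and 6 lower (32.9% and 38.7%), 13 and 1 at least 2-fold (12.5% and 15.5%), and the median was 0.87. Without the scaling 21 genes were higher and 8 lower against SCDM/FGF (20.8% and 51.2% of all genes), 9 and 3 of them at least 2-fold (8.8% and 20.6%), with a median of 0.32 against -0.31 for all genes. Against spheres 23 were then higher and 10 lower (16.6% and 61.3%), 6 and 6 at least 2-fold (7.87% and 26.9%), with a median of 0.33 against -0.51. These 3 comparisons use the same FIBCL libraries and are not independent of each other.

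In 25 of the 38 genes the 3 FIBCL libraries lay above all 9 others, a pattern seen in 23.6% of all tested genes. In 4 genes, Trp53, Mdm4, Sesn1 and Steap3, they lay below all 9 others, against 27.3% of all genes. Without the scaling the counts were 17 above, against 12.6% of all genes, and 7 below, against 43.3%. Those 7 were the same 4 genes with Btg2, Ephx1 and Fdxr. With the scaling the remaining 9 genes overlapped (Abhd4, Btg2, Ddb2, Ephx1, Fas, Fdxr, Gtse1, Psrc1 and Rrm2b). The highest mean levels in FIBCL belonged to Cdkn1a (878 scaled TPM), Rps27l (529), Gadd45a (484), Mdm2 (372) and Phlda3 (319), on a scale that allows for gene length.

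**Figure D1:**
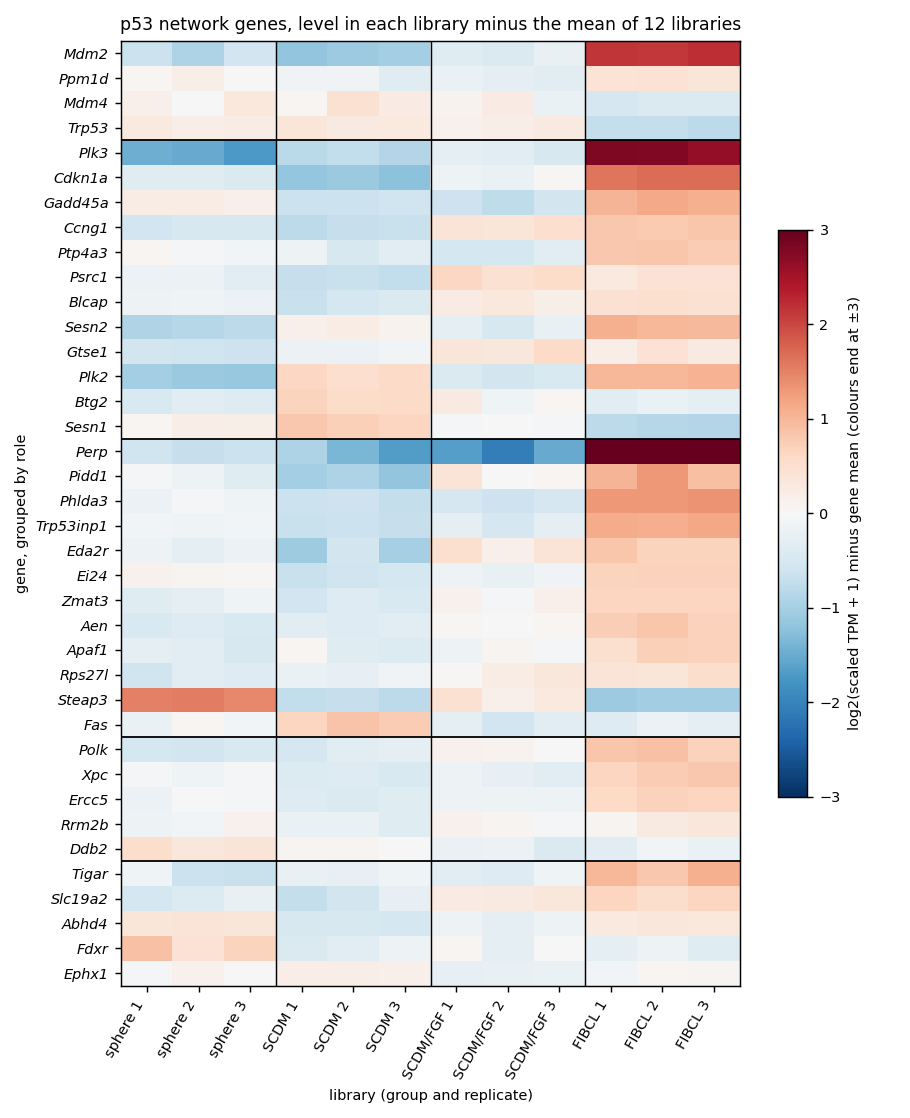
Each row is 1 of the 38 genes, grouped by role, and each column 1 of the 12 libraries; colour gives log2(scaled TPM + 1) minus the gene's mean over the libraries, red above and blue below it. The 3 FIBCL columns at the right are above all other columns for 25 genes (17 without the scaling) and below them for Trp53, Mdm4, Sesn1 and Steap3.

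Among p53 and its direct regulators, the gene of p53 and the gene of its main inhibitor moved in opposite directions. Trp53 (ENSMUSG00000059552, GRCm38 chromosome 11, 69580359 to 69591873) was at 47.6, 48.1 and 45.3 scaled TPM in the FIBCL libraries. It was at 102, 95.2 and 96.8 in SCDM, at 87.2, 91.3 and 96.5 in SCDM/FGF, and at 96.6, 91.5 and 92.0 in spheres. The 3 FIBCL values were near 0.480 times the SCDM mean, and the 9 values of the other groups lay together between 87.2 and 102. The fall against SCDM was -1.04 ± 0.05 on the log2 scale (adjusted p = 2.9e-09), with -0.95 against SCDM/FGF and -0.98 against spheres. Among the 3 other groups no difference in Trp53 was called, the largest being -0.09 for SCDM/FGF against SCDM (95% interval -0.20 to 0.01), although without the scaling SCDM/FGF was called lower than both SCDM (-0.18) and spheres (-0.25).

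Mdm2 (ENSMUSG00000020184, chromosome 10, 117688875 to 117710758), which encodes the ubiquitin ligase that degrades p53, was at 366, 361 and 387 scaled TPM in FIBCL. SCDM held 35.6, 38.3 and 40.0, SCDM/FGF 63.5, 61.0 and 70.1, and spheres 52.5, 42.9 and 54.6. The lowest FIBCL library, at 361, was far above the highest of the other 9, at 70.1. The log2 fold change was 3.26 ± 0.09 against SCDM (adjusted p = 3.6e-11) and 2.50 against SCDM/FGF. Within the same libraries the ratio of group means of FIBCL to SCDM was 9.78 for Mdm2 and 0.48 for Trp53.

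The other members of this role changed less. Mdm4, a relative of Mdm2 that blocks p53 without degrading it, was at 23.2 to 24.4 scaled TPM in FIBCL and at 28.7 to 45.7 elsewhere (-0.71 ± 0.12 against SCDM, adjusted p = 0.000294). Ppm1d encodes a phosphatase that removes activating phosphates from p53 and its kinases, and it was at 12.6 to 13.3 in FIBCL against 7.21 to 8.86 in SCDM. Its rise was 0.59 ± 0.09 (adjusted p = 6.24e-05). Against spheres Ppm1d was 0.32 higher with the scaling and -0.19, not called, without it.

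**Figure D2:**
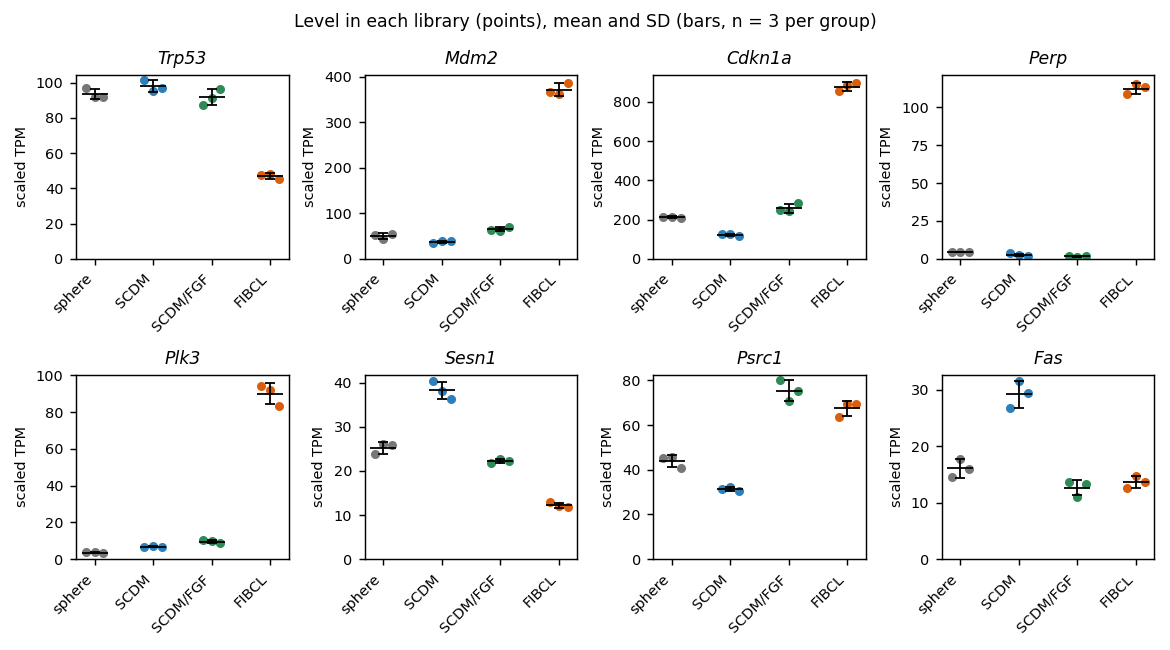
Scaled TPM of 8 genes in every library (points, coloured by group), with the mean and SD of the 3 libraries of a group (bars); each panel has its own axis from 0. FIBCL libraries sit far above the rest for Mdm2, Cdkn1a, Perp and Plk3 and below them for Trp53 and Sesn1, SCDM stands highest for Fas, and SCDM/FGF and FIBCL both stand above the other groups for Psrc1. Without the scaling, FIBCL and spheres were not called different for Psrc1.

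In the role of arrest, growth control and feedback, 10 of 12 genes were higher in FIBCL than in SCDM and 2 were lower. The shares of all genes were 32.7% and 39.0%, and the median of the role was 1.05. Cdkn1a (ENSMUSG00000023067, chromosome 17, 29090976 to 29100727), the gene of the cyclin-dependent kinase inhibitor p21, was at 853, 888 and 894 scaled TPM in FIBCL. It was at 125, 128 and 118 in SCDM, at 249, 243 and 285 in SCDM/FGF, and at 214, 214 and 206 in spheres. The groups did not overlap, and SCDM was the lowest of the 4. The log2 fold change of FIBCL was 2.82 ± 0.06 against SCDM (adjusted p = 5.27e-12), 1.76 against SCDM/FGF and 2.05 against spheres.

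Plk3 (ENSMUSG00000028680, chromosome 4, 117128655 to 117133963), a stress-responsive polo-like kinase, was at 94.2, 92.2 and 83.6 scaled TPM in FIBCL. The other libraries held 6.81, 7.12 and 6.40 in SCDM, 10.2, 9.64 and 8.67 in SCDM/FGF, and 3.88, 3.79 and 3.11 in spheres. The 4 groups were fully separated, in the order spheres, SCDM, SCDM/FGF and FIBCL. FIBCL was above SCDM by 3.55 ± 0.09 (adjusted p = 2.01e-11), and the ratio of means to spheres was 25.0.

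Plk2, the paralog, had a different order. It was at 153, 152 and 157 scaled TPM in FIBCL, at 118, 109 and 114 in SCDM, at 55.9, 51.5 and 54.8 in SCDM/FGF, and at 36.9, 34.6 and 34.0 in spheres. SCDM alone was thus well above spheres (1.66 ± 0.05, adjusted p = 4.51e-10), addition of bFGF to SCDM went with a lower level (-1.06, adjusted p = 1.05e-08), and the further rise of FIBCL over SCDM was small, 0.44 ± 0.05 with the scaling and 0.04, not called, without it.

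The sestrins, which restrain the growth kinase mTORC1, diverged as well. Sesn1 (ENSMUSG00000038332, chromosome 10, 41809935 to 41908424) was at 12.9, 12.1 and 11.8 scaled TPM in FIBCL, at 40.4, 38.1 and 36.4 in SCDM, at 21.8, 22.8 and 22.2 in SCDM/FGF, and at 23.8, 26.1 and 25.9 in spheres. Sesn2 was at 43.8, 41.8 and 41.0 in FIBCL, at 22.7, 24.2 and 22.2 in SCDM, at 16.6, 14.3 and 17.3 in SCDM/FGF, and at 10.5, 10.9 and 11.5 in spheres. FIBCL was the lowest group for Sesn1 and the highest for Sesn2. Sesn1 fell by 1.57 ± 0.06 against SCDM (log2 scale, adjusted p = 5.32e-10), the largest fall of the 38 genes in that comparison, and Sesn2 rose by 0.85 ± 0.07 (adjusted p = 6.2e-07).

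Gadd45a, a growth arrest gene induced by DNA damage, was at 467, 508 and 479 scaled TPM in FIBCL and at 146 to 152 in SCDM, 135 to 157 in SCDM/FGF and 257 to 269 in spheres (1.70 ± 0.05 against SCDM, adjusted p = 1.42e-10). Ccng1, which encodes cyclin G1, an Mdm2 regulator, was at 198, 197 and 203 in FIBCL, 65.7 to 70.9 in SCDM, 146 to 161 in SCDM/FGF and 75.4 to 81.3 in spheres. The larger step of Ccng1 was thus between SCDM and SCDM/FGF (1.13 ± 0.05, adjusted p = 7.42e-09). From SCDM/FGF to FIBCL it was 0.39 ± 0.05 with the scaling, and 0.08, not called, without it.

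Gtse1 and Psrc1, which encode microtubule-associated proteins of dividing cells, were highest in SCDM/FGF and FIBCL. Psrc1 was at 63.6, 69.6 and 69.5 scaled TPM in FIBCL, 80.0, 70.7 and 75.4 in SCDM/FGF, 31.5, 32.3 and 30.4 in SCDM and 45.3, 45.7 and 41.0 in spheres. Gtse1 was at 8.06, 9.59 and 8.46 in FIBCL, 9.15, 8.94 and 10.8 in SCDM/FGF, 5.92, 5.91 and 6.47 in SCDM and 4.40, 4.22 and 4.15 in spheres. With the scaling, FIBCL and SCDM/FGF lay above the other groups in both genes. Without it, Psrc1 in FIBCL was 0.07 above spheres and not called. FIBCL against SCDM gave 1.08 ± 0.06 for Psrc1 (adjusted p = 1.82e-08) and 0.45 ± 0.09 for Gtse1 (adjusted p = 0.000824), the latter 0.10 and not called without the scaling. FIBCL against SCDM/FGF gave -0.16 for Psrc1, whose call was lost without FIBCL replicate 1 (adjusted p = 0.154), FIBCL replicate 3 (0.0533), SCDM/FGF replicate 1 (0.134) or SCDM/FGF replicate 3 (0.073), and -0.13 for Gtse1 (not called, 95% interval -0.33 to 0.07). Without the scaling this Gtse1 difference was -0.41 and was called (adjusted p = 0.00195).

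Btg2, an antiproliferative gene, was the other member of this role that was lower in FIBCL than in SCDM. It was at 26.7, 29.0 and 27.3 scaled TPM in FIBCL, 53.9, 49.8 and 50.1 in SCDM, 40.5, 30.4 and 35.1 in SCDM/FGF and 24.3, 26.6 and 25.3 in spheres. FIBCL and spheres overlapped and SCDM was highest (-0.87 ± 0.09, adjusted p = 3.16e-06), while the difference from spheres was 0.12 and not called, and -0.41 with a call when the values were not scaled. Blcap and Ptp4a3, the latter a protein tyrosine phosphatase, were 1.02 ± 0.06 and 1.13 ± 0.09 higher in FIBCL than in SCDM.

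In the role of death and survival, 10 of 12 genes were higher in FIBCL than in SCDM and 2 lower. Of all genes 32.7% were higher and 39.0% lower, and the median of the role was 1.20. Perp (ENSMUSG00000019851, chromosome 10, 18845020 to 18857073), which encodes a membrane protein of desmosomes and an effector of p53-dependent death, had the largest difference of all 38 genes. It was at 109, 115 and 113 scaled TPM in FIBCL, at 3.53, 2.31 and 1.69 in SCDM, at 1.72, 1.03 and 2.03 in SCDM/FGF and at 4.70, 4.33 and 4.50 in spheres. Outside FIBCL the gene was near the filter, and the highest of the 9 values was 4.70. The log2 fold change was 5.05 ± 0.18 against SCDM (adjusted p = 4.09e-10), 5.47 against SCDM/FGF and 4.36 against spheres.

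Pidd1, Phlda3 and Trp53inp1 had FIBCL means 5.79, 3.98 and 3.58 times those of SCDM. Pidd1, the scaffold that activates caspase-2, was at 13.1, 16.1 and 11.9 scaled TPM in FIBCL against 2.41, 2.67 and 2.02 in SCDM, 7.99, 6.02 and 6.22 in SCDM/FGF and 5.75, 5.20 and 4.35 in spheres (2.12 ± 0.14 against SCDM). Phlda3, a repressor of the survival kinase Akt, was at 312, 317 and 327 in FIBCL and at 76.7 to 82.7 in SCDM, 82.8 to 89.9 in SCDM/FGF and 113 to 121 in spheres (1.98 ± 0.05). Trp53inp1, a stress protein with roles in autophagy and death, was at 83.8, 83.4 and 87.7 in FIBCL against 23.4 to 24.1 in SCDM (1.80 ± 0.06). For all of these genes FIBCL lay above every other library, and adjusted p values against SCDM were 8.46e-08, 1.17e-11 and 2.53e-10 in the same order.

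Eda2r, a receptor of the TNF receptor family, was at 13.9 to 15.6 scaled TPM in FIBCL, 9.45 to 12.0 in SCDM/FGF and 3.50 to 5.45 in SCDM. As with Ccng1, the step from SCDM to SCDM/FGF (1.21 ± 0.13, adjusted p = 2.03e-05) was larger than that from SCDM/FGF to FIBCL (0.38), and the call of the latter was lost without FIBCL replicate 1 (adjusted p = 0.0751) or SCDM/FGF replicate 2 (0.095), and without the scaling. Ei24, Zmat3, an RNA-binding zinc finger protein, Aen, an apoptosis-enhancing nuclease, Apaf1, the scaffold of the apoptosome, and Rps27l, a ribosomal protein paralog, were 1.28, 1.11, 1.11, 0.87 and 0.61 above SCDM, all called and all with FIBCL above the 9 other libraries, which no longer held for Ei24 and Rps27l without the scaling.

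The 2 genes of this role that were lower in FIBCL than in SCDM were Fas and Steap3. Fas, the death receptor, was at 12.6, 14.7 and 13.6 scaled TPM in FIBCL, 26.7, 31.5 and 29.4 in SCDM, 13.6, 11.1 and 13.3 in SCDM/FGF and 14.5, 17.8 and 16.0 in spheres. SCDM alone stood high and the other 3 groups lay together between 11.1 and 17.8 (FIBCL against SCDM -1.05 ± 0.10, adjusted p = 2.08e-06). FIBCL was not called different from SCDM/FGF (0.10, 95% interval -0.12 to 0.32, and -0.19, not called, without the scaling) or from spheres (-0.22, 95% interval -0.44 to 0.00, called without sphere replicate 1 at -0.29 and without the scaling at -0.73).

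Steap3, an iron reductase of endosomes, was highest in spheres at 281, 286 and 267 scaled TPM. It was at 58.5, 60.4 and 56.2 in SCDM, 136, 108 and 120 in SCDM/FGF, and 45.2, 46.7 and 47.1 in FIBCL. All 3 differentiation media were below spheres, by -2.23, -1.19 and -2.56 for SCDM, SCDM/FGF and FIBCL, with adjusted p values of 7.39e-10, 8.67e-08 and 4.38e-11. FIBCL was below SCDM by -0.33 ± 0.07 (adjusted p = 0.00117).

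Of the 5 genes of DNA repair and nucleotide supply, 4 were higher in FIBCL than in SCDM and 1 was lower. Of all genes 32.7% were higher and 39.0% lower. The mean of Xpc, which recognises damage in nucleotide excision repair, was 25.8 ± 1.69 scaled TPM (SD, n = 3) in FIBCL and 11.0 ± 0.312 in SCDM. Ercc5, an endonuclease of the same pathway, was at 32.7 ± 1.15 and 15.4 ± 0.428, and Polk, a polymerase that copies past damaged bases, at 21.7 ± 1.51 and 9.19 ± 0.842. These genes were 1.16, 1.04 and 1.16 higher on the log2 scale (adjusted p = 1.81e-08, 1.09e-08 and 1.17e-07). Rrm2b, the p53-inducible subunit of ribonucleotide reductase, was 0.48 ± 0.10 higher (adjusted p = 0.000855), and 0.13, not called, without the scaling.

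Ddb2, the other damage-recognition gene of excision repair, did not rise with Xpc. It was at 4.91, 5.97 and 5.47 scaled TPM in FIBCL, 6.80, 6.78 and 6.36 in SCDM, 5.42, 5.58 and 4.45 in SCDM/FGF and 9.69, 8.36 and 8.73 in spheres. Spheres were highest, and all 3 differentiation media were below them (-0.37, -0.69 and -0.62 for SCDM, SCDM/FGF and FIBCL, all called). The difference between FIBCL and SCDM was small (-0.25 ± 0.10, adjusted p = 0.0397), and its call was lost without FIBCL replicate 1 (adjusted p = 0.145), FIBCL replicate 3 (0.0792), or SCDM replicate 1 (0.0907), 2 (0.0894) or 3 (0.0503). The annotated exons of Ddb2 overlap the opposite-strand gene Acp2 over 23.8% of their bases, those of Gadd45a overlap E230016M11Rik over 19.1%, and those of Rrm2b, Cdkn1a, Ei24, Ephx1, Tigar and Plk3 overlap another gene over 3.32% to 8.04%. Alignment in an orientation mode is described, but the counting is not stated to use strand, so whether reads of such partners were separated is not known.

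Of the 5 genes of metabolism and transport, 3 were higher in FIBCL than in SCDM, 1 was lower and 1 was not called. Of all genes 32.7% were higher and 39.0% lower. Tigar, a phosphatase that slows glycolysis, was at 10.1, 8.70 and 10.6 scaled TPM in FIBCL, 3.78, 3.69 and 4.08 in SCDM, 3.38, 3.26 and 4.10 in SCDM/FGF and 4.06, 2.55 and 2.52 in spheres. FIBCL lay apart from 3 overlapping groups (1.15 ± 0.14 against SCDM, adjusted p = 1.91e-05). Slc19a2, a thiamine transporter, was 1.11 ± 0.11 above SCDM (adjusted p = 3.62e-06).

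Abhd4, a lipase of N-acyl phospholipids, was at 121 to 125 scaled TPM in FIBCL and at 127 to 128 in spheres, and at 68.3 to 70.1 in SCDM. FIBCL was above SCDM by 0.81 ± 0.04 (adjusted p = 3.19e-09) and was not called different from spheres (-0.05, 95% interval -0.13 to 0.03), a difference that became -0.59 and was called without the scaling. Ephx1, microsomal epoxide hydrolase, was -0.16 ± 0.05 below SCDM (adjusted p = 0.0196), a call lost without FIBCL replicate 1 (adjusted p = 0.0929). Fdxr, the mitochondrial ferredoxin reductase, was at 7.49 to 8.73 in FIBCL, 6.99 to 8.77 in SCDM, 7.93 to 10.4 in SCDM/FGF and 13.7 to 18.9 in spheres. It was the gene with no call between FIBCL and SCDM (0.03, 95% interval -0.25 to 0.32, and -0.32, not called, without the scaling), and it was lower than in spheres in all 3 media (-0.96, -0.73 and -0.93, all called).

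**Figure D3:**
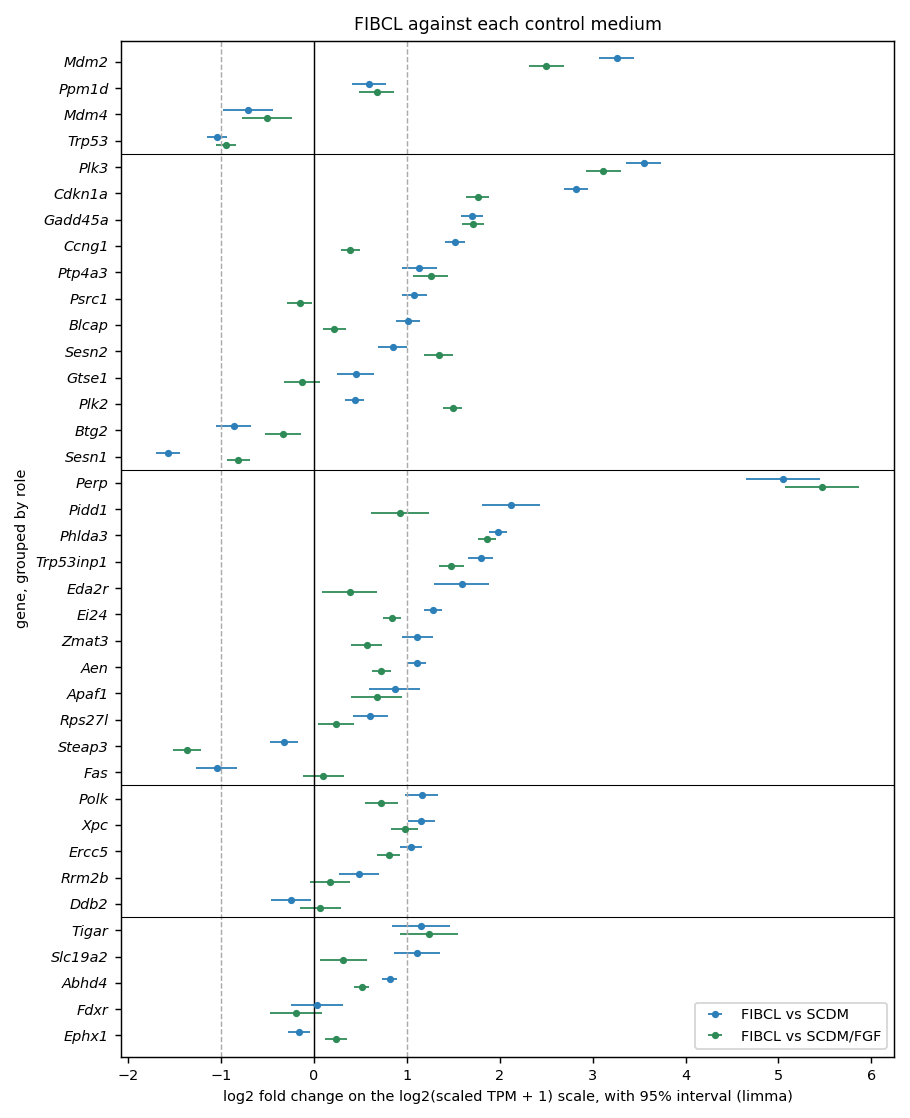
Log2 fold change of FIBCL against SCDM (blue) and against SCDM/FGF (green) for the 38 genes, grouped by role, with 95% intervals from limma and dashed lines at 2-fold; both sets of points share the FIBCL libraries. Perp lies farthest to the right at 5.05 and 5.47, followed by Plk3 and Mdm2, and Trp53, Sesn1 and Mdm4 lie to the left of 0 in both.

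The comparison of SCDM with spheres shows the same genes without the small molecules. SCDM cells were plated and kept for 14 days with BDNF and NT3, and without the EGF, bFGF, IGF and heparan sulfate of the spheres. The parts of these changes in a difference cannot be told apart. Here 9 genes were higher and 21 lower (24.5% and 25.8% of all genes), with a median of -0.25. Most genes of death and survival were among those lower (8 of 12), including Pidd1 (-0.86), Perp (-0.68), Eda2r (-0.67) and Phlda3 (-0.54), and so were Cdkn1a (-0.77), Gadd45a (-0.83) and Mdm2 (-0.38). The genes that were higher included Plk2 (1.66), Sesn2 (1.00), Btg2 (0.99), Fas (0.83), Plk3 (0.76) and Sesn1 (0.58). All of these values passed the test. Without the scaling the split was 7 higher and 22 lower, against 17.5% and 35.5% of all genes.

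Addition of bFGF to SCDM was compared next, since bFGF is the one factor that SCDM/FGF and FIBCL share beyond the supplements. Against SCDM, 21 genes were higher and 7 lower in SCDM/FGF (21.8% and 21.3% of all genes), with a median of 0.27. Without the scaling 18 and 8 were called, against 17.1% and 26.6% of all genes. The largest rises were those of Psrc1 (1.24), Eda2r (1.21), Pidd1 (1.20), Ccng1 (1.13), Cdkn1a (1.06) and Steap3 (1.04). The largest falls were those of Fas (-1.15), Plk2 (-1.06) and Sesn1 (-0.76). Perp was not among the genes called (-0.42, 95% interval -0.82 to -0.03, adjusted p = 0.0816), although it was called lower without SCDM replicate 3 (-0.60, adjusted p = 0.0182) or SCDM/FGF replicate 3 (-0.55, adjusted p = 0.046). Gadd45a differed by -0.02 (95% interval -0.14 to 0.10), and Phlda3 by 0.12 (adjusted p = 0.0507), which was called without SCDM replicate 2 (adjusted p = 0.0492) or SCDM/FGF replicate 2 (0.0196).

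Spheres, like SCDM/FGF, had grown with bFGF. Against spheres 16 genes were higher and 14 lower in SCDM/FGF (25.0% and 25.4% of all genes), with a median of 0.15. Without the scaling 11 were higher and 17 lower (15.8% and 42.9% of all genes), with a median of -0.04. Mdm2 was 0.37 and Cdkn1a 0.29 higher than in spheres (adjusted p = 0.00367 and 0.00145), and neither call was kept without the scaling (0.15 and 0.06). Plk3 was 1.19 higher and Perp 1.11 lower on the log2 scale.

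A further list held other genes known as direct p53 targets. Of 30 such genes, 29 were tested, and 16 were higher and 9 lower in FIBCL than in SCDM (32.7% and 39.0% of all genes), with a median of 0.41. The largest rises were those of Pmaip1, which encodes the death protein Noxa (0.983 ± 0.265 scaled TPM for SCDM, 2.78 ± 0.370 for SCDM/FGF and 159 ± 4.20 for FIBCL, SD, n = 3 each), of Ckmt1 (0.626 ± 0.562 and 16.1 ± 1.21 in SCDM and FIBCL) and of the death receptor gene Tnfrsf10b (12.4 ± 0.505 and 79.7 ± 2.64). The log2 fold changes were 6.34, 3.45 and 2.59. Genes that fell included Thbs1, which encodes a matrix protein (-2.81), and the phosphatase gene Ptprv (-2.70). Mesenchymal cells also express Thbs1, and mesenchyme markers were lower in FIBCL too, with summed levels of 217 to 233 scaled TPM against 7436 to 7743 in SCDM; their part in the fall of Thbs1 was not tested. Against SCDM/FGF the list split into 14 higher and 12 lower (32.5% and 38.2% of all genes), with a median of 0.18. This list and the other lists beyond the 38 genes were not counted without the scaling. Over all genes, leaving it out moved the median from -0.07 to -0.40 against SCDM.

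A list of cell cycle genes known to be repressed through p21, the product of Cdkn1a, and the DREAM complex was examined next. All 30 genes of that list were lower in FIBCL than in SCDM, against 39.0% of all genes, with a median of -3.37, and 27 of them were at least 2-fold lower, against 16.2% of all genes. Cdk1 had a mean of 0.681 ± 0.406 scaled TPM in FIBCL against 71.2 ± 2.17 in SCDM, Top2a 0.182 ± 0.107 against 45.6 ± 4.07, and Mki67 0.0374 ± 0.00181 against 18.8 ± 2.45. Against spheres 28 of 30 were lower, against 38.7% of all genes, with a median of -2.09. SCDM itself was above spheres for 29 of 30 (median 1.25), against 24.5% of all genes. SCDM/FGF had 2.09 times the mean Cdkn1a level of SCDM. It was lower than SCDM for 11 of the 30 genes and higher for 3 (21.3% and 21.8% of all genes). The median was -0.27. The summed level of the list was 132 to 135 scaled TPM in FIBCL, 658 to 737 in SCDM, 532 to 751 in SCDM/FGF and 318 to 332 in spheres, so FIBCL lay below all other libraries. Whether p21, DREAM or cell composition had a part in these levels was not tested.

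**Figure D4:**
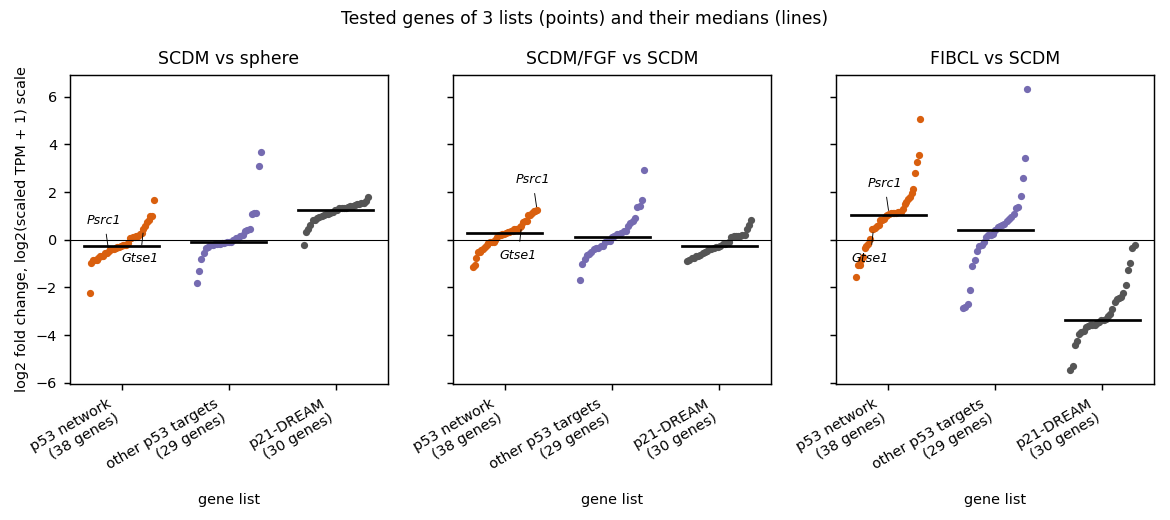
Log2 fold change of each tested gene (points) and the median (lines) in SCDM against spheres, SCDM/FGF against SCDM and FIBCL against SCDM. The lists are the 38 p53 network genes, 29 other p53 targets and 30 cell cycle genes known to be repressed through p21 and DREAM. In the right panel the medians are 1.06, 0.41 and -3.37, and Gtse1 and Psrc1 are marked as members linked to cell division.

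Marker levels of other cell types also differed between the groups, and the groups did not rank alike for all of them. Summed over 10 markers each, glial markers were at 16.3 to 22.5 scaled TPM in FIBCL, 227 to 266 in SCDM, 237 to 254 in SCDM/FGF and 636 to 668 in spheres. Mesenchyme markers were at 217 to 233 in FIBCL, 7436 to 7743 in SCDM, 5472 to 5919 in SCDM/FGF and 2800 to 2851 in spheres. Macrophage markers were at 168 to 198, 1532 to 1666, 1624 to 1764 and 128 to 165 in the same order. Although the FIBCL sum was above that of spheres, 9 of the 10 macrophage markers were lower in FIBCL than in spheres and 1 was higher (38.7% and 32.9% of all genes). Their median log2 fold change was -1.61. In FIBCL 8 of 10 mesenchyme markers were lower than in SCDM, while Twist1 (101 to 116) and Prrx1 (59.2 to 62.8) were higher, and all 10 macrophage markers were lower, with Cx3cr1 listed at 0 in 2 of 3 libraries and Cd68 still at 152 to 177. Endothelial markers summed to 30.9 to 32.5 in FIBCL, 43.1 to 51.4 in SCDM, 267 to 306 in SCDM/FGF and 106 to 110 in spheres, and melanocyte markers to less than 10 everywhere. Of the 6 endothelial markers, 3 were higher and 3 lower in FIBCL than in SCDM (32.7% and 39.0% of all genes), with a median log2 fold change of 0.06. The part of cell composition in the levels of the p53 network genes was not tested, and in bulk libraries fewer cells of a type and less RNA per cell cannot be told apart.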

How the data were processed

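RNA-seq libraries (polyA selection, TruSeq kit) were analysed as deposited. SeqPrep and Sickle (trimming), TopHat (alignment) and RSEM (quantification) were used by the authors, and the submitters' processing notes also name Cufflinks; the genome build is not given in the sources used here. The deposited TPM values cover 55487 genes in 12 libraries, and the columns matched to the FIBCL group are named FIBC. Groups came from the sample labels. The members and gene lists were chosen with earlier results of these data known. For scaling, each library's log2 ratios to an average library were taken over 8434 genes (5 TPM or more throughout) and their mean, after trimming 30% at each end, was removed. limma (version 3.58.1, R 4.3.3, with a mean-variance trend) was fitted to log2(scaled TPM + 1) of 16016 genes in 1 model of 4 groups, without a replicate block, and p values were adjusted by Benjamini-Hochberg over all genes within each of 6 comparisons. The code was tested on simulated data. All members were accounted for. Of each other list, at most 6 genes were named, those with the largest absolute fold change between FIBCL and SCDM among the genes called, and single cell type markers were picked after their values were seen. Replicates are labelled as biological. Gene positions are from GENCODE M21 (38 of 38 identifiers matched) and promoter windows from RefSeq. Alternatives were no scaling, median scaling, a pseudocount of 0.1, no filter or 5 TPM, a replicate block, 2 groups per model, no trend and each library left out; the unscaled count of genes whose FIBCL libraries did not overlap the others was added after seeing the data.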

Additional observations from a re-analysis of the deposited data

How the results depend on the processing

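Over 3192 values of single genes under all alternatives, 3053 kept direction and call, 89 lost and 25 gained a call, and 25 changed sign. Without the scaling, at least 2-fold rises fell to 10 genes (FIBCL against SCDM) and 6 (against spheres), at least 2-fold falls became 5, 3 and 6 (against SCDM, SCDM/FGF and spheres), and 10 genes were lower than in spheres; the last 2-fold count was 3 with a pseudocount of 0.1 and 1 to 2 with a library left out (2 without FIBCL replicate 1, sphere replicate 1 or sphere replicate 2). The other counts of calls over the 38 genes stayed within 1.5 times.

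Signs that changed without the scaling were those of FIBCL against SCDM/FGF for Blcap (-0.091), Ddb2 (-0.193), Ephx1 (-0.072), Fas (-0.192), Rps27l (-0.079) and Rrm2b (-0.112), against SCDM for Fdxr (-0.32), against spheres for Btg2 (-0.405), Ppm1d (-0.186) and Rrm2b (-0.221), of SCDM against spheres for Aen (-0.063), Apaf1 (-0.007), Mdm4 (-0.044) and Trp53 (-0.076), and of SCDM/FGF against spheres for Rrm2b (-0.11). Of these values only that of Btg2 was called. With 1 library left out, values spanned 0 for Ephx1 in FIBCL against spheres (-0.029 to 0.053), Fdxr in FIBCL against SCDM (-0.04 to 0.105), Ddb2 in FIBCL against SCDM/FGF (-0.017 to 0.133), Apaf1 (-0.024 to 0.216) and Mdm4 (-0.002 to 0.191) in SCDM against spheres, Trp53 (-0.064 to 0.008) and Mdm4 (-0.198 to 0.022) in SCDM/FGF against spheres, and Gadd45a in SCDM/FGF against SCDM (-0.065 to 0.043), genes with no call in those comparisons.

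Same-numbered libraries did not deviate together (r from -0.121 to 0.098 over 18 pairs), and 6 of 12 libraries correlated best with their own number. With 3 libraries per group these values cannot show whether the numbers pair the cultures. With the replicate block 29 genes were higher in FIBCL than in SCDM, and of 228 values 224 kept their call, Ddb2 (FIBCL against SCDM, adjusted p = 0.0505), Psrc1 (FIBCL against SCDM/FGF, 0.057) and Xpc (SCDM/FGF against SCDM, 0.0724) lost it and Pidd1 (SCDM/FGF against spheres, 0.0398) gained it. Read depth is unknown, so no limit from depth could be set.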

Other observations

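Genes that act on p53 were examined as a further list. Of 29 kinases, ligases and cofactors of p53, 27 were tested, and 4 were higher and 11 lower in FIBCL than in SCDM (32.7% and 39.0% of all genes), with a median log2 fold change of -0.20. Cdkn2a, whose locus encodes p19Arf, an inhibitor of Mdm2, and p16Ink4a, was the largest rise (2.09), with a mean level of 319.9 ± 9.53 scaled TPM in FIBCL (SD, n = 3 in this and the other groups), 182 ± 14.2 in SCDM/FGF, 74.6 ± 4.37 in SCDM and 30.1 ± 5.89 in spheres. The gene-level values do not separate the 2 products. The kinase genes Chek1, Atm and Prkdc were lower (-1.87, -1.20 and -1.17), and so were the ligase gene Cop1 (-1.10) and the deubiquitinase gene Otud5 (-0.78).

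Genes of the integrated stress response, some of which respond to stress without p53, followed another order. Of 15 genes, 3 were higher and 10 lower in FIBCL than in SCDM (median -0.43), where the same 32.7% and 39.0% apply, and 10 were higher in SCDM than in spheres (24.5% of all genes, median 0.84). Trib3 was at 43.6 ± 3.42 scaled TPM in SCDM and at 2.46 ± 0.309, 2.78 ± 0.312 and 7.52 ± 0.467 in spheres, SCDM/FGF and FIBCL, and Chac1 and Phgdh were also highest in SCDM, at 21.1 ± 4.03 and 84.5 ± 2.08. Ddit4, an inhibitor of mTORC1, was highest in FIBCL, at 427 ± 6.69 in FIBCL against 30.1 to 54.6 in the means of the other groups.

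Among immediate early and cAMP-responsive genes, 16 of 18 tested, 9 were higher and 6 lower in FIBCL than in SCDM (median 0.46), again beside 32.7% and 39.0% of all genes. Dusp1 (3.73) and Crem (2.55) rose, and Nr4a1 (-2.17), Egr2 (-2.11) and Fos (-1.40) fell.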
